A study of Sus scrofa with 6 samples.

Results

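The genes described here encode molecular chaperones: the heat shock proteins of the HSP70, HSP90, HSP110, small heat shock protein and HSP60/HSP10 families, the DNAJ co-chaperones, and the cytosolic chaperonin CCT. They were chosen by the start of the gene symbol on the array, which was HSPA, HSPB, HSPD, HSPE or HSPH with a digit after it, HSP90, DNAJ, or CCT with a digit after it. A gene with several probe sets was represented by the probe set of highest mean log2 signal over the 6 arrays. The rule found 49 genes of 6765 that had a single symbol on the array: 9 HSP70, 3 HSP90, 1 HSP110, 7 small heat shock protein, 2 HSP60/HSP10, 22 DNAJ (4 DNAJA, 7 DNAJB and 11 DNAJC) and 5 CCT genes.

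Aortic valve leaflets came from adult female pigs, and the endothelium of all of them was stripped with collagenase before a night in culture and then a pressure bioreactor, all in serum-containing medium. In the normotensive group the pressure cycled between 0 and 80 mmHg and in the hypertensive group between 0 and 120 mmHg, in both at 1 Hz for 24 h. Each group had 3 samples, and each sample was hybridised to an Affymetrix porcine array. The comparison asks which genes differ in expression in leaflets under raised pressure. The labels call the samples biological replicates but do not say whether they came from separate animals, and the p-values here therefore describe only how far these 6 samples spread, part of which can be technical.

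Chaperones hold unfolded protein chains in a state that can still fold. HSP70 proteins bind short hydrophobic stretches in a cycle driven by ATP, J-domain proteins of the DNAJ families deliver clients and start ATP hydrolysis, and HSP110 proteins release the nucleotide. HSP90 acts later, on nearly folded clients such as kinases and steroid receptors, while small heat shock proteins hold unfolding proteins without ATP and chaperonins enclose a chain in a barrel. Some of these genes are strongly induced by protein damage through the transcription factor HSF1, while others are expressed all the time. In mechanically loaded tissue, small heat shock proteins are also known for binding actin filaments and intermediate filaments.

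Values are MAS5 signals, which are intensities on a linear scale, and are listed in the order of replicates 1, 2 and 3 of a group. Differences are log2 values for hypertensive less normotensive signal, each with its standard error (SE) from the fit on 3 arrays per group, and a fold is the difference taken out of log2. Of the 49 genes, 47 had a mean signal above the filter level of 48.5, and the other 2, HSPA12A and HSPB3, did not and were not tested. Signals of different probe sets are not compared with each other, because probes differ in how brightly they report.

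The labelled tissue was checked on marker genes: all 9 measured interstitial cell and fibroblast markers of 11 listed lay above the filter level, and all 7 measured markers of striated muscle below it. The summed signal of the 9 interstitial markers was 79898 to 83747 on normotensive and 54582 to 69257 on hypertensive arrays. That of 9 endothelial markers was 2491 to 3057 and 2048 to 3923, with VWF, KDR, CDH5 and CLDN5 below the filter level in their mean. Within that list SELP and CDH5 were higher on every hypertensive array, SELP at 90.6 to 245 and 368 to 2296 and CDH5 at 12.3 to 40.5 and 68.4 to 115, and ERG was lower on every one, at 1142 to 1779.5 and 899 to 1019. The summed signal of 7 leukocyte markers was 2266 to 4847 and 1010 to 3549, with CD3E below the filter level. Among these PTPRC was lower on every hypertensive array, at 55.8 to 127 and 15.3 to 52.6. CORO1A was higher on every one, at 55.3 to 93.7 and 102 to 173. The part of cell composition in the differences described here was not tested, and in bulk tissue fewer cells of a type and less RNA per cell cannot be told apart. Hypertensive replicate 2 was the hypertensive array nearest the normotensive group. Its mean correlation with the normotensive arrays was 0.950, against 0.817 and 0.895 for hypertensive replicates 1 and 3. Mean correlation with the other arrays of the hypertensive group differed less, at 0.886, 0.869 and 0.909 for replicates 1, 2 and 3.

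None of the chaperone genes passed the threshold between pressures. By limma, 0 of the 47 tested genes had a p under 0.05 after Benjamini-Hochberg adjustment over all probe sets tested, as did 0% of all 14399 probe sets tested. At an unadjusted p under 0.05 there were 2436 of those probe sets, and 6 of the 47 genes. These were HSPA8, DNAJB6, DNAJC2 and CCT8, with higher signal at hypertensive pressure, and HSPA2 and HSPB6, with lower signal. The share with higher signal compares with 6.85% of all 5271 genes measured above the filter level, and that with lower signal with 10.2%. Adjusted p over the 47 genes ran from 0.248 to 0.996.

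Means were higher at hypertensive pressure for 33 of the 47 genes and lower for 14, where 45.0% of all genes had higher means. The median difference was 0.19, against -0.07 over all genes. The 2 groups of arrays did not overlap in 7 chaperone genes. In 6 of them (HSPA8, HSP90AB1, DNAJA2, DNAJC2, CCT4 and CCT8) every hypertensive array lay above every normotensive array, as it did in 9.28% of all genes. In HSPB6 alone every hypertensive array lay below, as in 12.6% of all genes. In both directions together the groups were separated in 14.9% of the chaperone genes and 21.9% of all genes. With quantile normalization the split was 4 higher and 3 lower: HSPA8, HSP90AB1 and CCT4 then overlapped, while DNAJB6 was separated upwards and HSP90B1 and HSPE1 downwards, against 10% and 12.6% of all genes. With the arrays shifted to a common median it was 4 higher and 1 lower, with HSPA8, DNAJA2 and CCT4 overlapping and DNAJA1 separated upwards, against 9.79% and 12.7% of all genes.

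**Figure D1:**
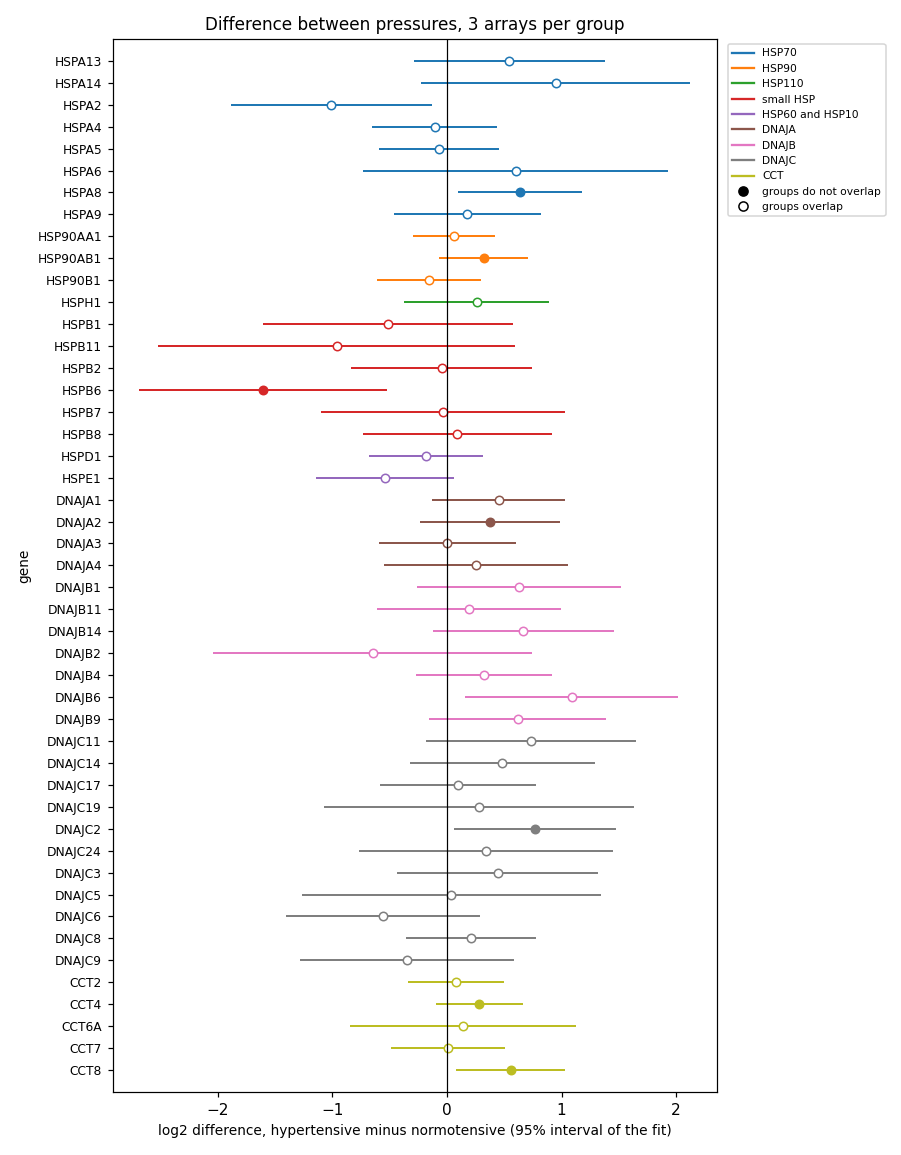
Log2 difference in signal (horizontal axis, hypertensive minus normotensive) for each of the 47 chaperone genes above the filter level (vertical axis), coloured by family, with bars for the 95% interval of the fit on 3 arrays per group. Filled points mark the 7 genes whose groups did not overlap; HSPB6 has the lowest difference, -1.60, and DNAJB6 the highest, 1.09.

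The direction of the means was not the same in every family. All 4 DNAJA genes and all 5 CCT genes had higher means, as did 6 of 7 DNAJB genes, 9 of 11 DNAJC genes, 5 of 8 HSP70 genes and 2 of 3 HSP90 genes. The smallest of the DNAJA and CCT differences were 0.004 for DNAJA3, 0.009 for CCT7 and 0.08 for CCT2. Of the 6 small heat shock protein genes above the filter level 5 had lower means, and so had both HSP60/HSP10 genes. The 6 were grouped by symbol and include HSPB11, a subunit of intraflagellar transport, at -0.96. Differences of the rest were -1.60 for HSPB6, -0.52 for HSPB1, -0.05 for HSPB2, -0.03 for HSPB7 and 0.09 for HSPB8. Median differences were 0.62 for DNAJB, 0.36 for HSP70, 0.32 for DNAJA, 0.28 for DNAJC and 0.14 for CCT. They were -0.28 for small heat shock proteins and -0.36 for HSP60/HSP10. HSPH1, the only gene placed under HSP110 by its symbol, was at 0.26. HSPA4, also a nucleotide exchange factor but placed under HSP70 by its symbol, was at -0.11. The HSP90 median was 0.06 and turned to -0.09 with quantile normalization. With array weights, which give discordant arrays less influence, the HSP70 median turned to -0.056 and the DNAJA median was 0.013, and without normotensive replicate 2 the CCT median was -0.017. Differences between families were not tested.

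**Figure D2:**
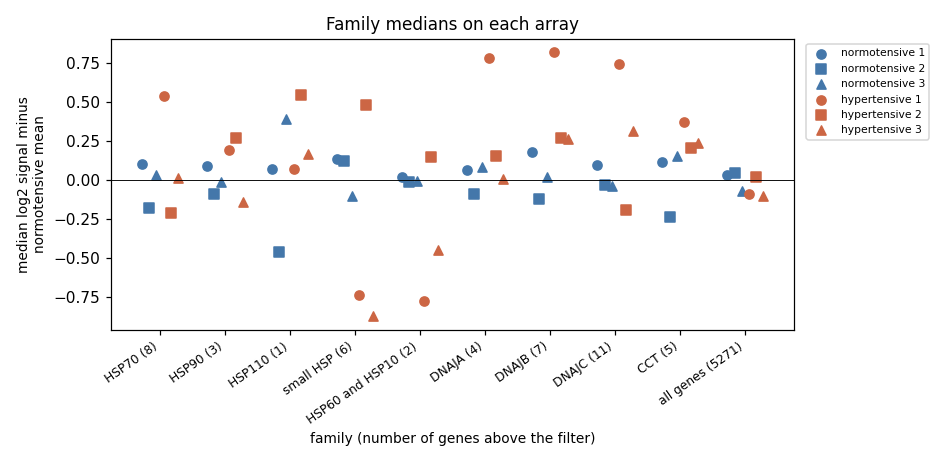
Median log2 signal minus the normotensive mean (vertical axis) over the genes of each family (horizontal axis, with the number of genes) on each of the 6 arrays; blue marks normotensive and orange hypertensive arrays. The 3 DNAJ families are highest on hypertensive replicate 1, at 0.78, 0.82 and 0.75, while small heat shock proteins and HSP60/HSP10 are low on hypertensive replicates 1 and 3 but not on replicate 2.

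Among HSP70 genes, HSPA8 encodes the constitutive cytosolic HSP70 that also uncoats clathrin vesicles. Its signal was 8358, 6691 and 8287 under normotensive and 15298, 8689 and 13214 under hypertensive pressure. The lowest hypertensive array, replicate 2, lay just above the highest normotensive array. The fold was 1.56 (difference 0.64, SE 0.23), which did not pass (adjusted p = 0.269). The 3 further HSPA8 probe sets had differences of -0.43 to -0.65, so the direction depended on the probe set.

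HSPA14 encodes an HSP70 protein that sits on the ribosome in a complex with the J-domain protein DNAJC2, where it meets chains as they emerge. Its signal was 1165, 901 and 1160.3 under normotensive and 3313, 846 and 3141 under hypertensive pressure. Hypertensive replicates 1 and 3 lay above every normotensive array while replicate 2 lay below every normotensive array, so the groups overlapped (difference 0.95, SE 0.51, adjusted p = 0.353). Its partner DNAJC2 was at 878, 569 and 777 under normotensive and 1403, 936 and 1458 under hypertensive pressure. All 3 hypertensive arrays of DNAJC2 were higher than all normotensive ones, and replicate 2 was again the lowest of them (difference 0.77, SE 0.30, adjusted p = 0.279). A further DNAJC2 probe set had a difference of 0.48.

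HSPA2, an HSP70 gene best known from male germ cells, had the largest lower difference of the family. Its signal was 1757, 2414 and 1985 under normotensive and 748, 1813 and 763 under hypertensive pressure. Replicates 1 and 3 of the hypertensive group lay far below the normotensive range and replicate 2 inside it (difference -1.01, SE 0.38, adjusted p = 0.274). HSPA6 encodes a strictly stress-induced cytosolic HSP70. Its signal was 328, 231 and 246 under normotensive and 249, 1102 and 237 under hypertensive pressure. A single array, hypertensive replicate 2, was high, and the other 2 hypertensive arrays lay inside the normotensive range (difference 0.60, SE 0.57, adjusted p = 0.58). Without that array the difference of HSPA6 was -0.13.

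The remaining HSP70 genes had overlapping groups. HSPA5 encodes BiP, the HSP70 of the endoplasmic reticulum (ER) and a standard reporter of ER stress. Its signal was 13076, 12464 and 11722 under normotensive and 15828, 8529.7 and 12198 under hypertensive pressure, and the 95% interval of its difference ran from -0.59 to 0.44. HSPA13, a microsomal HSP70 relative, was at 2554, 2396 and 3124 under normotensive and 5607, 2178 and 4866 under hypertensive pressure. Both HSPA13 probe sets had higher means, with differences of 0.55 and 1.02, and in the one used hypertensive replicates 1 and 3 were above the normotensive arrays and replicate 2 below them. HSPA9 encodes mortalin, the HSP70 of the mitochondrial matrix that pulls proteins through the inner membrane. It was at 8945, 6081 and 8622 under normotensive and 12886, 6584 and 8030.3 under hypertensive pressure, on a probe set of a type that can match several transcripts. Hypertensive replicate 1 was highest and the other 2 lay within the normotensive range. HSPA4, a large HSP70 relative that works as a nucleotide exchange factor, was at 1296, 1197 and 1139 under normotensive and 1234, 1066 and 1073 under hypertensive pressure, with an interval from -0.65 to 0.43. Its dimmer probe set stood apart from that, with a signal of 450.1, 521 and 526 under normotensive and 30.7, 315 and 93.7 under hypertensive pressure, a difference of -2.36. HSPA12A, a distant relative, had a signal of at most 34.2 on the 6 arrays and was not tested.

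Of the DNAJA genes, which encode the J-domain partners closest to bacterial DnaJ, DNAJA1 had the largest difference. Its signal was 5537, 5009.8 and 4949 under normotensive and 9504, 7383 and 5014 under hypertensive pressure. Hypertensive replicates 1 and 2 lay above the normotensive arrays and replicate 3 within their range (difference 0.45, SE 0.25, adjusted p = 0.362). In a further DNAJA1 probe set, with a difference of 0.76, the groups did not overlap. DNAJA2, a cytosolic co-chaperone of HSPA8, was at 1368, 1242 and 1419 under normotensive and 2289.8, 1463 and 1582 under hypertensive pressure. The groups did not overlap, although hypertensive replicate 2 and normotensive replicate 3 were close (difference 0.38, SE 0.26, adjusted p = 0.447). DNAJA3, the mitochondrial member, was at 558, 536 and 598 under normotensive and 567, 638 and 498 under hypertensive pressure, and the interval of its difference ran from -0.58 to 0.59. DNAJA4 was at 224, 152 and 233 under normotensive and 346, 187 and 207 under hypertensive pressure, with hypertensive replicate 1 alone above the normotensive arrays.

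DNAJB6 encodes a J-domain protein that suppresses aggregation of polyglutamine proteins, and it had the largest higher difference of all 47 genes. Its signal was 2257, 1322 and 2391 under normotensive and 6130.3, 2317 and 4842 under hypertensive pressure. Hypertensive replicates 1 and 3 lay above every normotensive array and replicate 2 lay inside the normotensive range. The fold was 2.13 (difference 1.09, SE 0.40, adjusted p = 0.271). The direction differed between its 4 probe sets, with a further one at 0.89 and 2 at -0.53 and -0.82. All hypertensive arrays lay above all normotensive ones in the probe set at 0.89, and below them in the one at -0.82.

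DNAJB14, a J-domain protein anchored in the ER membrane, was at 1078, 1002 and 1203 under normotensive and 2328, 1054 and 2115 under hypertensive pressure. Replicates 1 and 3 of the hypertensive group were high and replicate 2 was within the normotensive range (difference 0.67, SE 0.34, adjusted p = 0.34). A second DNAJB14 probe set had a difference of 0.45. DNAJB9, an ER co-chaperone of BiP that is induced in the unfolded protein response, was at 2171, 1402 and 2323 under normotensive and 4345, 2103 and 2801 under hypertensive pressure. Its further probe sets had differences of 0.72, with groups that did not overlap, and 0.00. DNAJB11, the soluble ER co-chaperone of BiP, was at 511, 652 and 427 under normotensive and 886, 430.5 and 553 under hypertensive pressure, with hypertensive replicate 2 near the bottom of the normotensive range and replicate 1 above it.

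DNAJB1 encodes HSP40, the classical heat-induced partner of HSP70. Its signal was 906, 741 and 729 under normotensive and 1390.3, 1884 and 695 under hypertensive pressure. Hypertensive replicates 1 and 2 lay above the normotensive arrays and replicate 3 below them, so the groups overlapped (difference 0.63, SE 0.38, adjusted p = 0.397). DNAJB4, a close relative of DNAJB1, was at 3824, 2419 and 2704 under normotensive and 3138, 4452 and 3513 under hypertensive pressure. Only hypertensive replicate 2 lay above all normotensive arrays of DNAJB4. DNAJB2, known from neurons, had the only lower mean of the DNAJB genes, at 106, 113 and 111 under normotensive and 28.8, 179 and 67.2 under hypertensive pressure. Its hypertensive arrays spread on both sides of a tight normotensive group (difference -0.65, SE 0.60), and without hypertensive replicate 1 its fold was 0.998, without replicate 2 0.40.

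**Figure D3:**
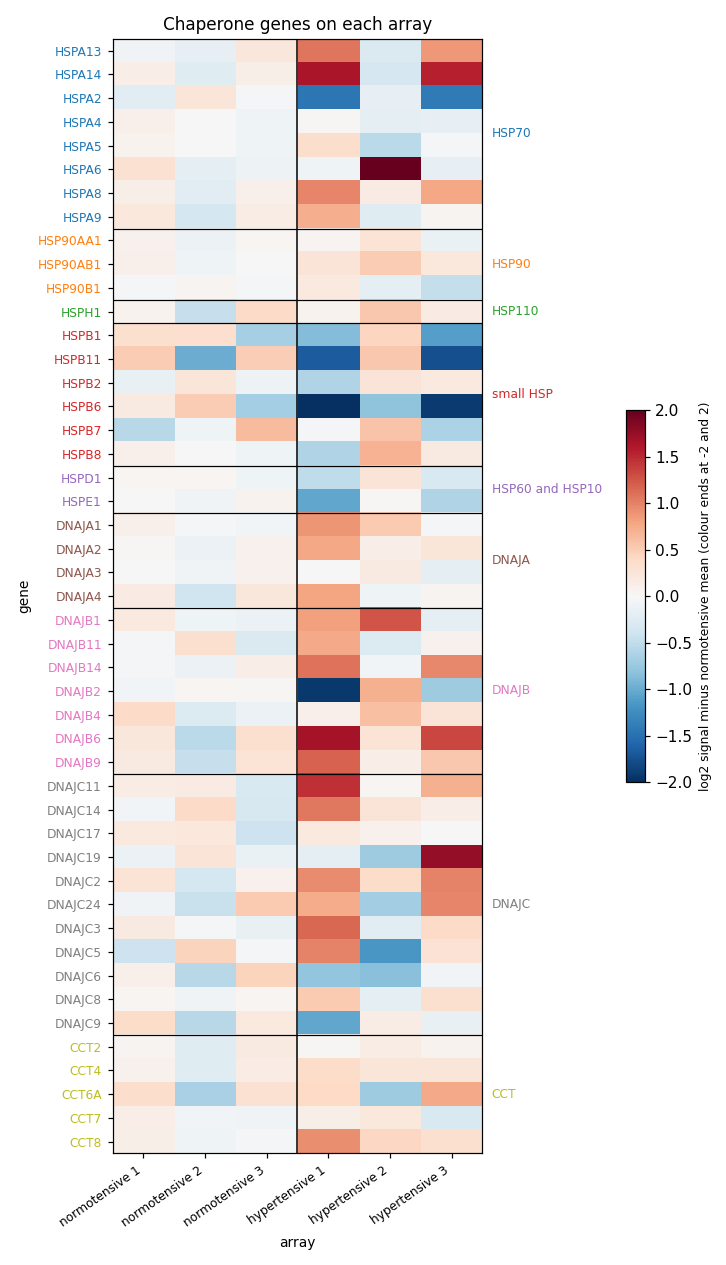
Log2 signal minus the normotensive mean of the same gene (colour, red higher and blue lower, ending at -2 and 2) for the 47 chaperone genes above the filter level (rows, by family) on the 6 arrays (columns). Hypertensive replicates 1 and 3 are red in most DNAJB and DNAJC genes and blue in HSPB1, HSPB6, HSPB11 and HSPE1, and replicate 2 is red in HSPA6 and DNAJB1.

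The DNAJC genes encode J-domain proteins of varied and often specialised roles, and DNAJC2, described above, was the only one whose groups did not overlap. DNAJC11, a mitochondrial protein, was at 218, 221 and 159 under normotensive and 541, 202 and 323 under hypertensive pressure. Here too hypertensive replicates 1 and 3 lay above the normotensive arrays and replicate 2 among them (difference 0.74, SE 0.40, adjusted p = 0.356). DNAJC3, an ER co-chaperone that also inhibits eIF2-alpha kinases, was at 208, 180.3 and 167 under normotensive and 409, 159.9 and 242 under hypertensive pressure. The order of the hypertensive arrays was the same, with replicate 1 highest and replicate 2 lowest (difference 0.44, SE 0.38, adjusted p = 0.534). DNAJC14, which acts in export of membrane proteins from the ER, was at 290.4, 393 and 242 under normotensive and 626, 361 and 333 under hypertensive pressure, and its 2 probe sets had differences of 0.48 and 0.44.

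DNAJC24, needed to make diphthamide on elongation factor eEF2, was at 591, 453 and 886 under normotensive and 1038, 381 and 1214 under hypertensive pressure. Replicate 2 was the lowest of all 6 arrays and replicates 1 and 3 were the highest. DNAJC8, a spliceosome component, was at 2714, 2533 and 2714 under normotensive and 3793, 2318 and 3304 under hypertensive pressure, and again replicates 1 and 3 were the highest arrays and replicate 2 the lowest. DNAJC17, also a nuclear protein linked to splicing, was at 250.1, 252 and 164 under normotensive and 251, 232 and 218 under hypertensive pressure, and its 3 hypertensive arrays lay inside the normotensive range.

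DNAJC19 encodes a subunit of the motor that imports proteins into mitochondria. Its signal was 588, 758 and 577 under normotensive and 553, 389 and 2162 under hypertensive pressure. The difference of 0.28 rested on hypertensive replicate 3, without which the fold was 0.729. DNAJC5, the cysteine string protein of secretory vesicles, was dim, at 45.9, 82.8 and 59.2 under normotensive and 121, 27.1 and 74.2 under hypertensive pressure, and its interval ran from -1.26 to 1.34. Without hypertensive replicate 2 its fold was 1.56. Lower means were found for DNAJC6, the auxilin that recruits HSPA8 to clathrin coats, and for DNAJC9, a histone chaperone of dividing cells. DNAJC6 was at 474, 303 and 605 under normotensive and 256, 249 and 425 under hypertensive pressure (difference -0.56, SE 0.36) and DNAJC9 at 447, 236 and 397 under normotensive and 169, 385 and 314 under hypertensive pressure (difference -0.35, SE 0.40). In both genes the groups overlapped.

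HSPH1, the inducible HSP110 that frees ADP from HSP70, was at 3363, 2335 and 4203 under normotensive and 3364, 4679.6 and 3602 under hypertensive pressure. The highest array was hypertensive replicate 2, and the others lay within the normotensive range (difference 0.26, SE 0.27, adjusted p = 0.611).

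HSP90AB1, the constitutive cytosolic HSP90, was at 7523, 6584 and 6944 under normotensive and 8336, 9940.4 and 8082 under hypertensive pressure. Every hypertensive array was above every normotensive array, by a fold of 1.25 between means (difference 0.32, SE 0.17, adjusted p = 0.345). HSP90AA1, the inducible cytosolic form, was at 14846, 12814 and 14313 under normotensive and 14533, 16795 and 12690.0 under hypertensive pressure. Its difference was 0.06 with an interval from -0.29 to 0.41, turned to -0.09 with quantile normalization, and its 4 further probe sets ran from -0.72 to 0.11. HSP90B1, the ER form known as GRP94, was at 9929, 10404 and 9791 under normotensive and 11446, 8784 and 7225 under hypertensive pressure. Hypertensive replicate 1 was its highest array and replicates 2 and 3 its lowest (difference -0.16, SE 0.19), and a second probe set had a difference of 0.06.

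HSPB6, also called HSP20, is a small heat shock protein of smooth and striated muscle that is phosphorylated when smooth muscle relaxes. Its signal was 181, 227 and 100.1 under normotensive and 37.6, 91.8 and 42.4 under hypertensive pressure. All hypertensive arrays lay below all normotensive arrays, and 2 of them under the filter level. The difference of -1.60 (SE 0.47) was the lowest of the 47 genes and did not pass (adjusted p = 0.248). A further HSPB6 probe set lay below the filter level in its mean, at 57.0, 40.5 and 39.8 under normotensive and 53.1, 48.6 and 33.0 under hypertensive pressure, with overlapping groups.

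HSPB1, also called HSP27, caps and protects actin filaments and is induced by heat. Its signal was 815, 817 and 411 under normotensive and 357, 872 and 301 under hypertensive pressure. Hypertensive replicates 1 and 3 lay below the normotensive arrays and replicate 2 above them (difference -0.52, SE 0.47, adjusted p = 0.562). HSPB8, which works with BAG3 to clear damaged filament proteins, was at 973, 905 and 853 under normotensive and 597, 1477 and 1025 under hypertensive pressure. Again replicate 2 was the highest array, and the interval ran from -0.73 to 0.90. HSPB11 carries the symbol of the family but is a subunit of the intraflagellar transport train of cilia. It was at 867, 306 and 856 under normotensive and 193, 884 and 180.0 under hypertensive pressure, so its normotensive arrays were also far apart (difference -0.96, SE 0.67, adjusted p = 0.453). Without hypertensive replicate 2 the fold of HSPB11 was 0.306, against 0.513 with it.

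HSPB2, a muscle gene, was at 123, 162 and 126 under normotensive and 89.7, 163 and 156 under hypertensive pressure, and HSPB7, a cardiac gene, at 42.3, 58.1 and 96.1 under normotensive and 60.0, 92.0 and 39.7 under hypertensive pressure. The groups of both overlapped, and their differences of -0.05 and -0.03 turned to 0.01 and 0.02 with a median shift. HSPB3, a muscle gene, had a signal of at most 24.4 and was not tested. In the porcine reference annotation HSPB2 lies next to CRYAB, the gene of alpha-B-crystallin, a further small heat shock protein that the symbol rule leaves out. CRYAB was chosen after its values were seen. It was at 5966, 3883 and 5806 under normotensive and 832, 4177 and 1545 under hypertensive pressure, with replicates 1 and 3 of the hypertensive group below the normotensive range and replicate 2 inside it (difference -1.55, SE 0.53, adjusted p = 0.268).

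HSPD1 and HSPE1 encode the barrel and the lid of the mitochondrial chaperonin and are neighbours in the porcine reference annotation. HSPD1 was at 10825, 10919 and 10014 under normotensive and 7423, 12700.2 and 8607 under hypertensive pressure. HSPE1 was at 12021, 11362 and 12553 under normotensive and 5814, 12209.6 and 7907 under hypertensive pressure. In both genes hypertensive replicates 1 and 3 lay below all normotensive arrays, with replicate 1 the lowest, and replicate 2 did not. The differences were -0.18 (SE 0.21) for HSPD1 and -0.54 (SE 0.26) for HSPE1, and neither passed (adjusted p = 0.654 and 0.32).

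The CCT chaperonin folds actin and tubulin in the cytosol, and 5 of its subunits were measured under the rule. CCT8 was at 6629, 5738 and 6024 under normotensive and 11629, 8184 and 7641 under hypertensive pressure. All hypertensive arrays were above all normotensive ones, with replicate 1 the highest (difference 0.56, SE 0.20, adjusted p = 0.271). CCT4 was at 10069.9, 8063 and 10548 under normotensive and 12301, 11207 and 11198 under hypertensive pressure. Its groups did not overlap either, with a fold of 1.22 (difference 0.28, SE 0.16, adjusted p = 0.375). CCT2 was at 7071, 5756 and 7715 under normotensive and 6932, 7504 and 7109 under hypertensive pressure, inside the normotensive range on all 3 hypertensive arrays. CCT7 was at 4456, 3934 and 3866 under normotensive and 4438, 4696 and 3314 under hypertensive pressure, and its difference of 0.01 turned to -0.03 with quantile normalization. CCT6A was at 4094, 2048 and 3994 under normotensive and 4232, 1966 and 5436 under hypertensive pressure, so arrays of both groups were spread, and its further probe sets had differences of 0.47 and 0.07. Among the 5 subunits the lowest interval bound was -0.83 and the highest 1.12. TCP1, the CCT subunit whose symbol the rule leaves out, was at 3768, 3011 and 3576 under normotensive and 4927, 2375 and 3959.9 under hypertensive pressure, a difference of 0.06.

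Grouped by where the proteins work, from textbook knowledge, 20 of 28 cytosolic genes had higher means (median 0.26), as did 6 of 8 ER genes (median 0.46) and 4 of 6 mitochondrial genes (median 0.09). The ER group comprised HSPA5, HSPA13, HSP90B1, DNAJB9, DNAJB11, DNAJB14, DNAJC3 and DNAJC14. Its median on the hypertensive arrays was 1.06 on replicate 1, -0.20 on replicate 2 and 0.27 on replicate 3, against -0.06 to -0.01 on the normotensive arrays. In none of the 8 genes were the groups separated in the probe set used. The groups were separated upwards in a further DNAJB9 probe set, and downwards in HSP90B1 with quantile normalization.

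Hypertensive replicate 2 did not lie on the same side of replicates 1 and 3 in every family. It was the lowest of the 3 hypertensive arrays in 14 of the 22 DNAJ genes and in 6 of 8 HSP70 genes, where it was lowest in 32.8% of all genes. It was the highest in all 6 genes with a small heat shock protein symbol above the filter level, HSPB11 among them. The same held in both HSP60/HSP10 genes, where it was highest in 45.5% of all genes. From the genes that textbooks describe as induced by heat through HSF1, 8 were set apart after their values were seen, so that no test was made. They were HSPA6, HSP90AA1, HSPH1, HSPB1, HSPD1, HSPE1, DNAJA1 and DNAJB1, which is not a full list of such genes. Replicate 2 was the highest hypertensive array in 7 of these 8 genes, all but DNAJA1, and in 13 of the other 39. It lay above every normotensive array in 7 of the 8, all but HSPE1, in 13 of the other 39 and in 30.1% of all genes.

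HSP70.2 is the array's symbol for the gene that the porcine annotation also lists under HSPA1A and HSPA1B, the main heat-induced HSP70. The symbol rule leaves it out, and it was added after its values were seen. The brightest of its 3 probe sets was at 8272, 6502 and 8581 under normotensive and 3225, 13163 and 4299 under hypertensive pressure. Replicate 2 was the highest of the 6 arrays and replicates 1 and 3 the lowest, in all 3 probe sets. Their differences were -0.45, -0.52 and -0.23. BAG3, a co-chaperone of HSP70 that is also induced by heat, did not show this order. It was at 2356, 1993 and 2240.2 under normotensive and 2876, 2009.8 and 1235 under hypertensive pressure, with replicate 2 inside the normotensive range and between the other hypertensive arrays (difference -0.19, SE 0.33, adjusted p = 0.771). It was added after its values were seen, and the mean of its 2 probe sets gave a difference of 0.051. Cytosolic HSP70 genes are close in sequence, and cross-hybridisation between their probe sets was not tested. GAPDH control probe sets at both ends of the transcript give a 3′/5′ ratio that reports RNA integrity. It was 2.91 on hypertensive replicate 2, 3.67 and 6.04 on replicates 1 and 3, and 2.11 to 7.52 on the normotensive arrays. The same ratio for actin was far higher on all arrays and ordered them differently: it was 81.7 on hypertensive replicate 2, 79.5 and 52.5 on replicates 1 and 3, and 41.1 to 109 on the normotensive arrays. The part of RNA integrity in these patterns was not tested.

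**Figure D4:**
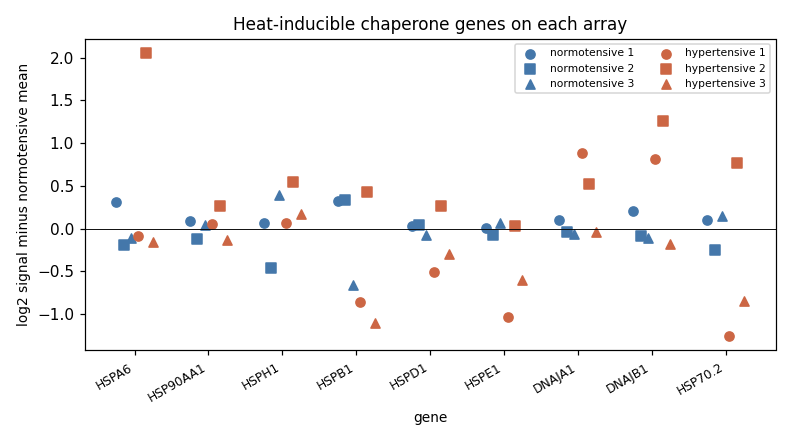
Log2 signal minus the normotensive mean (vertical axis) of the 8 heat-inducible chaperone genes and HSP70.2 (horizontal axis) on each array, blue for normotensive and orange for hypertensive. Hypertensive replicate 2 (orange square) is the highest hypertensive array in every gene shown except DNAJA1, and reaches 1102 in signal in HSPA6, where the other 5 arrays lie between 231 and 328.

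Hypertensive replicate 2 was the hypertensive array nearest the normotensive group in these same data. Without hypertensive replicate 2, 11 of the 47 genes passed the threshold (23.4%), as did 24.3% of all probe sets tested. These were HSPA8, HSPA13, HSPA14, DNAJB6, DNAJB14, DNAJC2 and DNAJC11 with higher and HSPA2, HSPB6, HSPB11 and HSPE1 with lower signal. Differences without that array were 1.59 for HSPA14, 0.97 for HSPA13, 0.88 for HSPA8, -1.43 for HSPA2, -1.71 for HSPB11 and -0.82 for HSPE1. The groups then did not overlap in 23 genes, 16 higher and 7 lower, against 24% and 32.4% of all genes. Leaving out hypertensive replicate 3 instead gave 11 such genes, 8 higher and 3 lower, against 15.1% and 17.2% of all genes, and 0 past the threshold. Leaving out hypertensive replicate 1 gave 10, 7 higher and 3 lower, against 11.1% and 14.2% of all genes, and also 0 past the threshold.

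For 14 chaperone genes more than 1 probe set lay above the filter level. All probe sets had the same direction in 9 genes, and the direction differed in DNAJB6, DNAJB9, HSP90AA1, HSP90B1 and HSPA8. With the mean of a gene's probe sets in place of the brightest, the difference of HSPA8 was -0.26 and that of HSP90AA1 -0.18. That of DNAJB6, the highest with the brightest probe set, was 0.16, and that of HSPA4 was -1.24. The groups of HSPA8 and DNAJC2 then overlapped, while DNAJA1 was separated upwards and HSPA4 downwards, which gave 5 genes higher and 2 lower, against 9.92% and 12.1% of all genes.

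**Figure D5:**
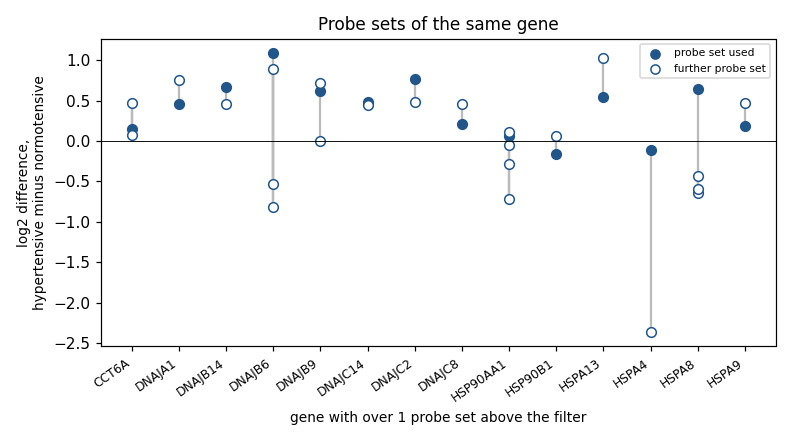
Log2 difference (vertical axis, hypertensive minus normotensive) of every probe set above the filter level for the 14 chaperone genes with over 1 such probe set (horizontal axis); filled points are the probe sets used and open points further ones. In HSPA8 and DNAJB6 probe sets lie on both sides of 0, and a dimmer HSPA4 probe set lies at -2.36.

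Other genes of protein folding were taken from lists beside the symbol rule, and none passed the threshold. Of 36 listed co-chaperones and regulators 25 were measured above the filter level, 12 with higher and 13 with lower means (median -0.04, against -0.07 over all genes). The groups of 1 of the 25 were separated upwards and of 2 downwards, against 9.28% and 12.6% of all genes. SUGT1, an adaptor of HSP90, was at 1595, 1756 and 1989.6 under normotensive and 261, 1419 and 339 under hypertensive pressure, with all hypertensive arrays lower (difference -1.82, SE 0.58, adjusted p = 0.257). TRAP1, the mitochondrial HSP90, was at 495, 509 and 353 under normotensive and 286, 304 and 291 under hypertensive pressure, also with groups that did not overlap (difference -0.61, SE 0.27). BAG1, a nucleotide exchange factor of HSP70, was at 1434, 1424 and 1176 under normotensive and 3867, 1665 and 1513 under hypertensive pressure, with all hypertensive arrays higher (difference 0.67, SE 0.37). A further 3 genes were chosen after their values were seen. ST13, which steadies HSP70 bound to its client, was at 10445, 10932 and 11142 under normotensive and 3820.4, 11414 and 5889 under hypertensive pressure. Its hypertensive replicates 1 and 3 were low and replicate 2 was the highest array. The heat shock factor HSF1 was at 169, 102 and 63.2 under normotensive and 21.9, 63.9 and 81.4 under hypertensive pressure and HSF2, a related factor, at 655, 552 and 632 under normotensive and 1584, 636 and 987 under hypertensive pressure. Both had overlapping groups, and the HSF1 signal lay near the filter level on several arrays.

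Of 12 listed partners of the CCT chaperonin and its clients 10 were measured, 5 higher and 5 lower (median 0.03). TXNDC9, a regulator of CCT, was lower on all hypertensive arrays, at 3246, 2835 and 3618 under normotensive and 1409, 2681 and 1917 under hypertensive pressure (difference -0.73, SE 0.28). PDCL3, a cofactor of CCT, was higher on all of them, at 1692, 1521 and 1693 under normotensive and 2293, 1796 and 2348 under hypertensive pressure (difference 0.38, SE 0.23). Of 29 listed genes of the unfolded protein response and ER folding 18 were measured, 9 higher and 9 lower (median -0.05). PPP1R15A, which directs a phosphatase to eIF2-alpha, was at 110.2, 52.3 and 72.5 under normotensive and 331, 135 and 152 under hypertensive pressure, higher on every hypertensive array (difference 1.34, SE 0.45, adjusted p = 0.265). The asparagine synthetase ASNS was at 2121, 1459 and 2068 under normotensive and 1083, 1452 and 1286 under hypertensive pressure, lower on every hypertensive array (difference -0.55, SE 0.26). Of 14 listed genes of mitochondrial protein quality and import 7 were measured, 4 higher and 3 lower (median 0.19). TOMM70, an import receptor that docks HSP70 and HSP90, was dim but higher on every hypertensive array, at 52.7, 33.5 and 46.7 under normotensive and 72.8, 66.3 and 76.6 under hypertensive pressure (difference 0.72, SE 0.34). In each of these lists 1 gene was separated upwards and 1 downwards, against 9.28% and 12.6% of all genes. The lower gene of the mitochondrial list was TRAP1, given above.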

How the data were processed

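The deposited values are signal intensities, 1 per probe set and array, made by the authors with GCOS and MAS5, per the submitters' processing notes, which give no versions. The 2% trimmed mean was between 500.11 and 500.131 on the 6 arrays, so the authors had scaled each array to a common level, which removes any difference in total RNA. Of 24123 probe sets, 124 controls were left out. Of the other 23999, 10069 had 1 platform symbol, 198 several and 13732 none. The symbols of 48 of the 49 chaperone genes matched the RefSeq table by gene ID.

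Here signals were taken to log2 with no pseudocount, probe sets at or above the 40th percentile of mean log2 signal (48.5) were kept, and the 14399 kept were fitted in R 4.3.3 by limma 3.58.1 (lmFit, eBayes with an intensity trend, 2-sided, Benjamini-Hochberg over all kept probe sets, threshold 0.05). The code was first run on simulated arrays of known differences. With 3 arrays per group the smallest p of an exact permutation test is 0.1. The genes and lists were chosen with earlier results of these data known. Values on all arrays were given for genes with separated groups, for the 2 largest differences of a family and for small families, and for the rest after their values were seen; from the lists, up to 3 genes of smallest p with separated groups. The number of arrays limits the precision.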

Additional observations from a re-analysis of the deposited data

How the results depend on the processing

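Of 984 values of the 62 named genes under the alternatives, 937 kept their direction, 47 turned sign and 43 were past the threshold only under an alternative. A replicate term, another filter or a fit with no intensity trend cannot alter a difference, so values under those kept their direction by construction. With the replicate block, the replicate number as a term, 0 probe sets and 0 chaperone genes passed by limma. Adjusted p fell in some genes, as from 0.248 to 0.153 for HSPB6, and rose in others, as from 0.345 to 0.374 for HSP90AB1. Separation of the groups does not use that term, so the 7 separated chaperone genes could not change. Deviations of same-numbered arrays correlated at 0.0593, 0.072 and 0.226, each above those of differently numbered arrays, at -0.137 to 0.041. The labels do not say whether the numbers pair samples. Array numbers were not taken to pair them, and a shared batch was not tested. A 60th percentile filter or none, pseudocounts of 16 and 64, a fit with no intensity trend, the mean of a gene's probe sets, the median shift and quantile normalization each left 0 genes past the threshold. With array weights, which give discordant arrays less influence, 5639 probe sets (39.2%) and 15 chaperone genes (31.9%) passed. The median over all chaperone genes was then 0.024, against -0.12 over all genes. Family medians were -0.056 for HSP70, -0.15 for HSP90, 0.013 for DNAJA and 0.16 for DNAJB, and the cause was not tested. Array weights also turned HSPA6 to -0.20, HSPA9 to -0.042, HSP90AA1 to -0.15, HSPB2 to 0.22, DNAJA3 to -0.13, DNAJB1 to -0.11, DNAJC17 to -0.093 and CCT7 to -0.31. In the same order, hypertensive replicate 3 alone less the normotensive mean was at -0.16, 0.048, -0.14, 0.20, -0.18, -0.18, 0.0023 and -0.30. HSPA9 and DNAJC17 differed in sign between the weighted fit and that array, and the other genes had the same sign in both. These genes were picked because their sign turned with weights. How much influence each array kept was not tested. Quantile normalization gave -0.090 for HSP90AA1, 0.023 for HSPB2 and -0.034 for CCT7, and the median shift 0.012 for HSPB2 and 0.024 for HSPB7. The mean of a gene's probe sets gave a DNAJB median of 0.32, -0.26 for HSPA8, -0.18 for HSP90AA1 and 0.051 for BAG3. Without 1 array in turn, 0 to 3505 probe sets and 0 to 11 chaperone genes passed and 9 to 23 chaperone genes had separated groups, each highest without hypertensive replicate 2. The separated genes were 19.1% of the chaperone genes without normotensive replicate 3, where 31.6% of all genes were separated, and 48.9% without hypertensive replicate 2, where it was 56.4%; without each of the other 4 arrays it was 21.3% to 23.4%, against 25.3% to 32.3% of all genes. The median over all chaperone genes then ran from 0.092 (without hypertensive replicate 1) to 0.25 (without normotensive replicate 3). That over all genes ran from -0.11 to -0.043. The DNAJC median ran from 0.092 (without hypertensive replicate 1) to 0.64 (without hypertensive replicate 2). For CCT it ran from -0.017 (without normotensive replicate 2) to 0.32 (without normotensive replicate 1). Leaving out 1 array at a time, differences that turned sign ran from -0.48 to 0.13 for BAG3, from -0.041 to 0.17 for CCT2, from -0.18 to 0.57 for CCT6A, from -0.088 to 0.16 for CCT7, from -0.084 to 0.095 for DNAJA3 and from -0.018 to 0.43 for DNAJA4. Those ran also from -0.096 to 0.42 for DNAJB11, from -0.11 to 0.20 for DNAJC17, from -0.46 to 0.78 for DNAJC19, from -0.44 to 0.64 for DNAJC5, from -0.62 to 0.0020 for DNAJC9 and from -0.040 to 0.16 for HSP90AA1. The others ran from -0.28 to 0.16 for HSPA5, from -0.13 to 0.98 for HSPA6, from -0.096 to 0.39 for HSPA9, from -0.20 to 0.23 for HSPB2, from -0.34 to 0.28 for HSPB7 and from -0.22 to 0.44 for HSPB8. The others ran  and from -0.16 to 0.36 for TCP1. Signals near the filter level of 48.5, as in HSPB6, HSPB7 and DNAJC5, limit how well those folds are known.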
